A study of Rattus norvegicus with 12 samples.

Results

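A set of 14 genes was read at more than 2 times its highest wild-type level in every library of both knockout lines of NRK cells, a cell line from normal rat kidney. The genes were chosen from the 20842 genes of the count table on their CPM (the count divided by the library total and multiplied by 1000000). Each had a mean of at least 1 CPM over the 8 knockout libraries, and its lowest knockout library exceeded 2 times its highest wild-type library. Of 16 genes past both limits, Dcn and Lum were left out by name, because secreted matrix proteoglycans, collagens, laminins, integrins, matrix proteases, solute carriers, smooth muscle actins, desmin and Csrp1 were kept out of the set. The choice itself used the differences between knockout and wild type, so these are given as a description, without a test.

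Polyadenylated RNA of wild-type (WT), VAMP7KO and ATG5KO cells was sequenced in 4 libraries per genotype, numbered 1 to 4. The purpose was to set the loss of VAMP7 beside the loss of ATG5. VAMP7 is a vesicle SNARE of late endosomes and lysosomes, and ATG5 belongs to the conjugation machinery that lipidates LC3 on forming autophagosomes. Each knockout line was made with CRISPR-Cas9 and grown from a single sorted cell, so a line is 1 clone. Features of a clone cannot be told apart from effects of the lost gene. By its label each line carries the single named knockout. All cells grew in complete medium without treatment, and each library came from 600 ng of total RNA. The labels give no culture day, passage or batch, so the p-values measure the spread between these libraries, which may be technical. In such bulk RNA, more cells expressing a gene and more RNA per cell cannot be told apart.

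Several of the 14 genes encode proteins that leave the cell or sit in its membranes. Proteins of this kind are folded in the endoplasmic reticulum and carried through the Golgi apparatus to the surface, to endosomes or out of the cell. Others belong to the actin and ubiquitin machinery of muscle. By role, Thbs1, Serpinf1 and Fkbp10 serve the extracellular matrix, Nrp1, Sort1, Scarf1 and Ptprq are receptors or receptor-like proteins, Lmod1 and Asb5 are known from muscle, and Akr1c15 is a metabolic enzyme. LOC103691744 and the unnamed genes ENSRNOG00000062503 and ENSRNOG00000064430 have no role stated here.

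RefSeq promoter sequences (assembly GRCr8) were at hand for 6 of the 14 genes, namely Thbs1, Serpinf1, Sort1, Asb5, Akr1c15 and Nrp1. The 250 bases before the annotated start are printed for Thbs1, Sort1 and Asb5, because they held the letters of a TATA box or of the M-CAT element, which TEAD factors bind. Capitals mark the M-CAT element, the GC box and the TATA box, matched on both strands. The Thbs1 promoter lies at chr3:125510000-125510249 on the + strand, that of Sort1 at chr2:198612245-198612494 on the + strand, and that of Asb5 at chr16:44010438-44010687 on the - strand.
Thbs1: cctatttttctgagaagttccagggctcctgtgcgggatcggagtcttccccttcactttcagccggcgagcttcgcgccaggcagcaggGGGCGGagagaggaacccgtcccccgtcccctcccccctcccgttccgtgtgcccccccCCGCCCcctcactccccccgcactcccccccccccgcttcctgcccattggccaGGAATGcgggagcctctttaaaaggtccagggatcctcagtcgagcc
Sort1: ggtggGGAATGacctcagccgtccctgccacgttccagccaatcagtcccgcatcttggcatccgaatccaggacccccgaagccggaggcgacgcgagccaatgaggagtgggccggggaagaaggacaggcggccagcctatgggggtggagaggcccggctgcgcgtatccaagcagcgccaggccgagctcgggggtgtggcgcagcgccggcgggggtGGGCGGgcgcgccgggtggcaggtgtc
Asb5: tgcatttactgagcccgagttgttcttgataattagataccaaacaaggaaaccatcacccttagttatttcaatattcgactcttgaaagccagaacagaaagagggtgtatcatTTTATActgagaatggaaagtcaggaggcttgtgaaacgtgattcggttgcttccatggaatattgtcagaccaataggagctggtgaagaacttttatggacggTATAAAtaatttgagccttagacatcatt
The M-CAT letters (CATTCC) began 47 bases before the start of Thbs1 and 245 bases before that of Sort1. In windows from 250 bases before to 50 after the start, they stood in 2 of the 6 promoters and in 14.2% of all 33469 promoters. The TATA letters (TATAAA) stood in 1 of the 6, 29 and 134 bases before the start of Asb5, and in 14.2% of all promoters. The GC box (GGGCGG) stood in 3 of the 6 (Thbs1, Sort1 and Akr1c15) and in 33.1% of all. The AP-1 letters (TGANTCA) were found in none of the 6 and in 7.33% of all promoters. The CRE (TGACGTCA), the E-box (CACGTG) and the CArG box were likewise in none of the 6, and stood in 1.83%, 6.42% and 1.64% of all. The printed matches did not overlap each other. They are matches of letters, and no binding was measured.

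Of the 14 genes, 11 matched a gene of the RefSeq table by symbol, and these lay on 8 chromosomes. Serpinf1 and Scarf1 were near neighbours on chromosome 10, with 7 annotated genes between them.

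Library totals ran from 21090858 to 31525111 counts, so that 3 counts, taken here as the limit of detection, stood for 0.0952 to 0.142 CPM. Vamp7 itself was read at 106 to 116 CPM in WT, 40.3 to 51.2 CPM in VAMP7KO and 128 to 132 CPM in ATG5KO; Atg5 was not analysed here. Replicates 1 and 2 stood apart from replicates 3 and 4 in all 3 genotypes. Deviations from the genotype mean correlated at 0.607 to 0.781 between libraries of different genotypes within a replicate set, and at -0.789 to -0.638 between the sets. The comparison of the knockout lines is therefore also given within each replicate set for the genes described one by one; the counts over lists of other genes are given over all replicates. Of 15 epithelial markers 2 were identified by symbol, and Krt8 was read at 439 to 852 CPM in all 12 libraries, while Cdh16 stayed at or below 1.91 CPM. Symbols were known only for genes that the study had listed as changed, so the remaining epithelial markers were not read.

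The limits passed 0.139% of the 11532 genes with a mean of at least 1 CPM over the knockout libraries. Just inside the fold limit stood ENSRNOG00000062503 at 2.05 times the highest WT library, Akr1c15 at 2.14, Lmod1 at 2.22 and Sort1 at 2.25. Just outside stood Unc5c at 1.995, Plat at 1.99 and Kcnj16 at 1.99 times. Among the genes described one by one that had WT counts, Asb5 at 12.4 times and Nrp1 at 5.37 were farthest from the limit. Ptprq had no count in any WT library. With counts scaled by TMM or by DESeq2 size factors 19 genes passed, the 14 together with Eya1, Fbln5, Kcnj16, Plat and Unc5c. For 9 of the 14 genes the lowest knockout library was VAMP7KO replicate 3 or 4, and for the other 5 it was an ATG5KO library. The share of all genes with such an order was not counted, so this is a description only.

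**Figure D1:**
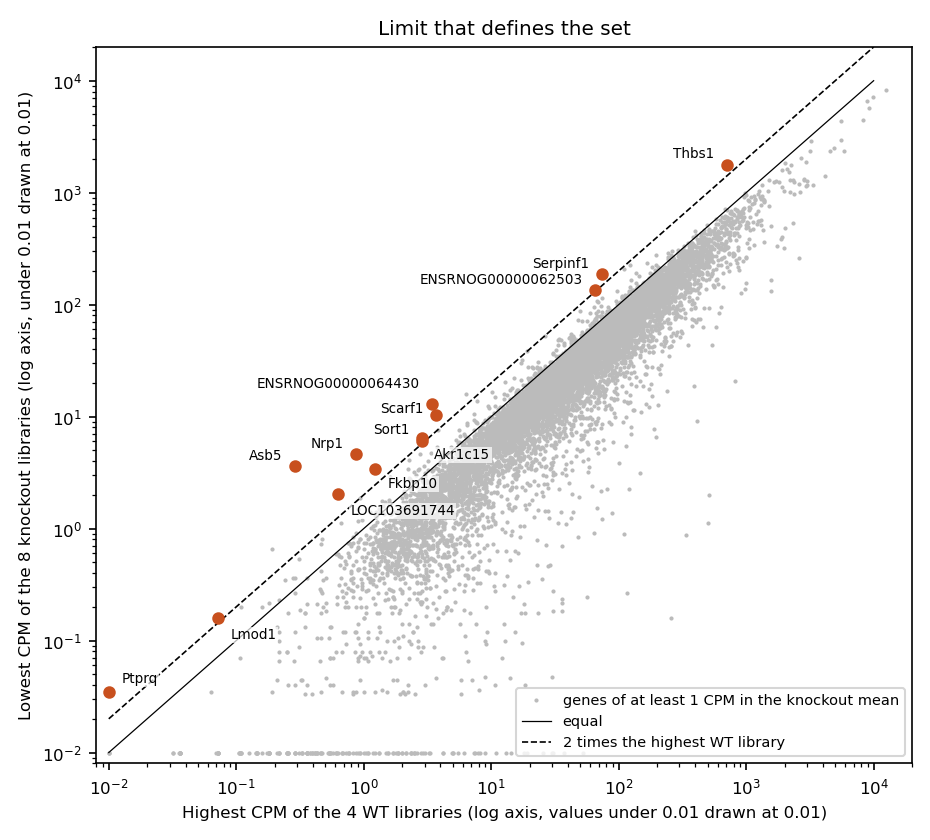
Lowest CPM of the 8 knockout libraries (y) against highest CPM of the 4 WT libraries (x), both on log axes, for the 11532 genes with a knockout mean of at least 1 CPM (grey) and for 13 genes of the set (orange). The dashed line marks 2 times the highest WT library; among genes with WT counts Asb5 lies farthest above it at 12.4 times, and ENSRNOG00000062503 lies nearest at 2.05 times.

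**Figure D2:**
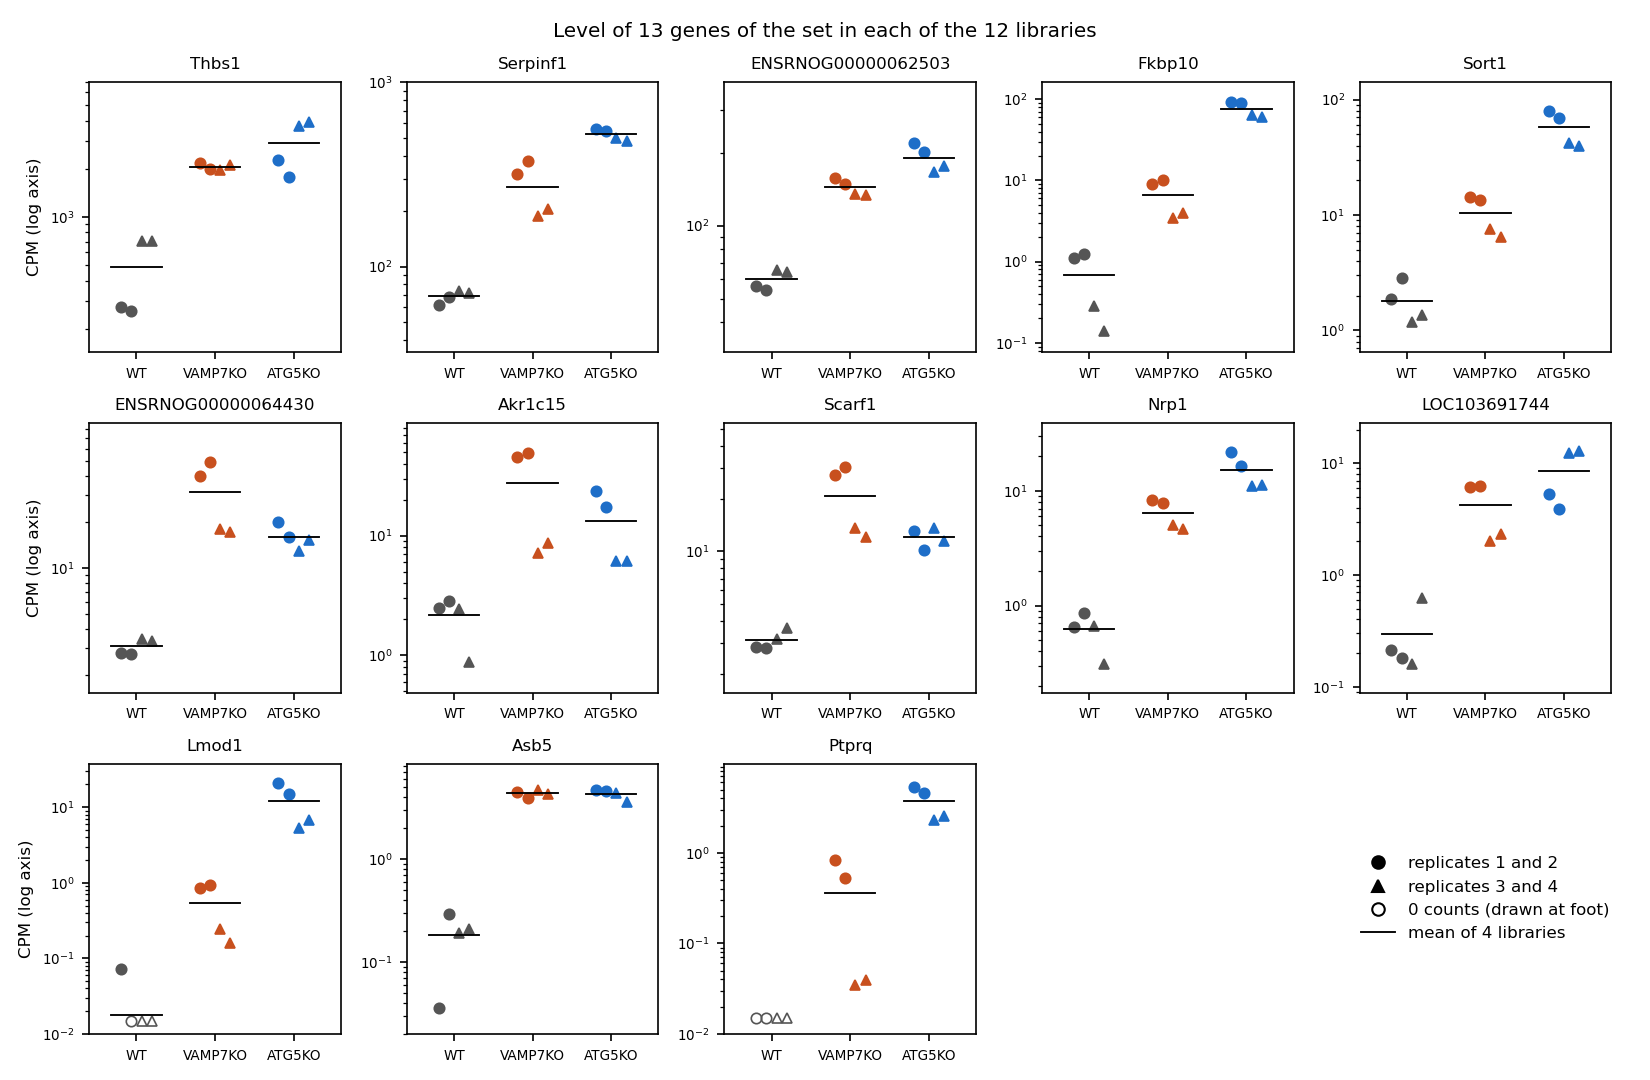
CPM (log axis) of 13 genes of the set in each of the 12 libraries, by genotype; circles are replicates 1 and 2, triangles replicates 3 and 4, open symbols libraries with 0 counts, and bars the mean of 4 libraries. ATG5KO lies wholly above VAMP7KO in 7 panels, and in 11 panels the VAMP7KO triangles lie below the VAMP7KO circles. Over all genes tested, 17.3% held the first order and 40.1% the second. Lmod1 and Ptprq, among the 7, reached the required mean of 1 CPM only through ATG5KO.

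Thbs1 encodes thrombospondin-1, a trimeric glycoprotein of the matrix and of platelets that binds cell surfaces and releases TGF-beta from its latent form. It was read at 275, 258, 708 and 711 CPM in WT replicates 1 to 4, at 2157, 1990, 1958 and 2099 CPM in VAMP7KO, and at 2260, 1777, 3692 and 3898 CPM in ATG5KO. The WT libraries fell into a lower and an upper pair, the VAMP7KO libraries lay close together, and the ATG5KO libraries again fell into pairs. The lower ATG5KO pair straddled the VAMP7KO values, and the upper pair lay above them. Mean levels were 4.2 times WT in VAMP7KO and 5.96 times WT in ATG5KO. Within replicates 1 and 2 these folds were 7.77 and 7.57, and within replicates 3 and 4 they were 2.86 and 5.35. The knockout lines were compared with edgeR's quasi-likelihood test, blocked on the replicate number and adjusted over 13141 genes. Thbs1 did not pass, with a log2 fold change of VAMP7KO over ATG5KO of -0.32 (SE, the standard error, 0.259, adjusted p = 0.348). In replicates 3 and 4 alone it was lower in VAMP7KO, by -0.84 on the log2 scale (edgeR adjusted p = 1.26e-15), and in replicates 1 and 2 alone the value was 0.10 (adjusted p = 0.521).

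Serpinf1 encodes pigment epithelium-derived factor, a secreted serpin that does not inhibit proteases and is known for restraining blood vessel growth. Its levels were 62.0, 68.2, 73.8 and 72.3 CPM in WT, 319, 374, 187 and 204 CPM in VAMP7KO and 561, 547, 498 and 478 CPM in ATG5KO. The 3 genotypes did not overlap, and mean levels were 3.93 and 7.54 times WT in VAMP7KO and ATG5KO. VAMP7KO was lower than ATG5KO, with a log2 ratio of -0.92 (SE 0.185, edgeR adjusted p = 0.00279), which was -0.61 in replicates 1 and 2 alone and -1.26 in replicates 3 and 4 alone.

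Fkbp10 encodes FKBP65, a prolyl isomerase of the endoplasmic reticulum that assists collagen folding. It was read at 1.11, 1.23, 0.285 and 0.139 CPM in WT, at 9.11, 10.2, 3.40 and 3.98 CPM in VAMP7KO and at 91.8, 90.6, 63.1 and 60.0 CPM in ATG5KO. The genotypes formed 3 separate steps, with means 9.67 and 111 times WT in VAMP7KO and ATG5KO. The WT values of replicates 3 and 4 rest on 9 and 4 counts. The difference between the knockout lines was among the largest of the set, at a log2 fold change of -3.59 (SE 0.230, edgeR adjusted p = 2.70e-06), and it was -3.18 within replicates 1 and 2 and -4.0 within replicates 3 and 4.

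Among 29 other genes of elastic fibres, matrix glycoproteins and proteoglycans that were identified and tested, 21 were higher and 5 lower in VAMP7KO than in WT, and 21 were higher and 1 lower in ATG5KO. Over all genes tested, 10.5% were higher and 12.3% lower in VAMP7KO, and 23.6% were higher and 22.7% lower in ATG5KO. The 1385 genes higher in VAMP7KO were 861 without WT replicate 1, 831 without VAMP7KO replicate 1 and 857 without VAMP7KO replicate 2. For the 29 genes, the median log2 fold changes were 1.19 and 1.62 in VAMP7KO and ATG5KO, beside medians of 0.00 and 0.01 over all genes. Symbols were known only for genes that the study had listed as changed in these same libraries, so these counts are not independent evidence of a direction. Of the Thbs1 relatives, Thbs2 averaged 79.7 CPM in WT, 13.3 CPM in VAMP7KO and 424 CPM in ATG5KO, and thus fell in VAMP7KO (log2 fold change -2.44, edgeR adjusted p = 0.000701) and rose in ATG5KO (2.5, adjusted p = 0.000162). Thbs3 averaged 35.1, 58.3 and 130 CPM and was higher than WT in both lines, with log2 fold changes of 1.05 (adjusted p = 0.00424) and 2.25 (adjusted p = 2.06e-05). Between the knockout lines, 8 of the 29 were higher and 16 lower in VAMP7KO, beside 21.3% and 23.6% of all genes.

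Nrp1 encodes neuropilin-1, a transmembrane coreceptor for VEGF and for class 3 semaphorins. It was read at 0.645, 0.867, 0.666 and 0.313 CPM in WT, at 8.28, 7.86, 5.05 and 4.66 CPM in VAMP7KO and at 21.9, 16.3, 10.9 and 11.3 CPM in ATG5KO. The lines did not overlap, and the means stood at 10.4 and 24.3 times WT. VAMP7KO was lower than ATG5KO with a log2 fold change of -1.16 (SE 0.159, edgeR adjusted p = 0.000286), and the value was nearly equal in both replicate sets, at -1.17 and -1.13. The Nrp1 ligand genes Sema3a and Sema3d, which encode secreted semaphorins, moved in opposite directions in the knockout lines. Sema3d averaged 57.3 CPM in WT, 361 CPM in VAMP7KO and 20.6 CPM in ATG5KO, with log2 fold changes over WT of 2.71 (edgeR adjusted p = 2.87e-07) and -1.48 (adjusted p = 2.63e-06). Sema3a averaged 98.8, 187 and 55.1 CPM, with log2 fold changes of 0.96 (adjusted p = 0.00597) and -0.89 (adjusted p = 0.00451).

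Sort1 encodes sortilin, a receptor of the Vps10 family that carries cargo such as neurotrophin precursors and lysosomal proteins between the Golgi apparatus, endosomes and the surface. Its levels were 1.86, 2.85, 1.17 and 1.35 CPM in WT, 14.4, 13.6, 7.54 and 6.41 CPM in VAMP7KO and 79.7, 69.9, 42.2 and 39.7 CPM in ATG5KO. All 3 genotypes were apart, at means 5.78 and 31.9 times WT. Sort1, whose promoter is printed above, had the smallest adjusted p of the set between the knockout lines, with a log2 fold change of -2.43 (SE 0.121, edgeR adjusted p = 5.63e-07). It was -2.36 and -2.49 within the replicate sets.

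Scarf1 encodes a scavenger receptor that takes up modified lipoproteins and is best known from endothelial cells. It was read at 2.87, 2.82, 3.17 and 3.68 CPM in WT, at 27.2, 30.1, 13.5 and 12.0 CPM in VAMP7KO and at 13.1, 10.2, 13.6 and 11.5 CPM in ATG5KO. Replicates 1 and 2 of VAMP7KO lay above all ATG5KO libraries, whereas replicates 3 and 4 lay among them. The test called Scarf1 higher in VAMP7KO by 0.77 on the log2 scale (standard error 0.280, edgeR adjusted p = 0.0456). This call was lost without WT replicate 2 or 3, VAMP7KO replicate 1 or 2, or ATG5KO replicate 1, 2 or 4, with an adjusted p of up to 0.187, and the value was 1.37 in replicates 1 and 2 alone (adjusted p = 3.05e-06) and 0.08 in replicates 3 and 4 alone (adjusted p = 0.586).

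Ptprq encodes a receptor-type phosphatase of the plasma membrane known from the hair bundles of the inner ear. It had 0 counts in all 4 WT libraries, 25, 12, 1 and 1 counts in VAMP7KO and 114, 133, 64 and 55 counts in ATG5KO. In CPM the VAMP7KO libraries stood at 0.825, 0.530, 0.0350 and 0.0398, and the ATG5KO libraries at 5.41, 4.65, 2.33 and 2.57. Replicates 3 and 4 of VAMP7KO were therefore under 3 counts, where no difference from WT was detectable at this depth, although the gene passed the limits of the set. The ATG5KO mean was at least 36.0-fold higher than WT. VAMP7KO was called lower than ATG5KO, with a fitted log2 fold change of -3.60 (SE 0.513, edgeR adjusted p = 0.00131), and it was called within replicates 1 and 2 at -2.79 (adjusted p = 1.04e-05) and within replicates 3 and 4 at -5.81 (adjusted p = 6.87e-09). With 1 count in each VAMP7KO library of replicates 3 and 4, the fitted sizes that use them depend on the prior count. From the 119 counts of ATG5KO and the 2 of VAMP7KO in these replicates, the ratio of CPM was 65.3, with an exact 95% interval of 17.7 to 545 that covers counting error only. Ptprq averaged 0.357 CPM in VAMP7KO and reached the required mean of 1 CPM only through ATG5KO. The choice of the gene thus favoured a lower level in VAMP7KO than in ATG5KO.

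Of 21 other genes for growth factors, guidance cues and their receptors, 14 were higher and 2 lower in VAMP7KO than in WT, and 14 were higher and 3 lower in ATG5KO. These counts stand beside the 10.5% higher and 12.3% lower, and the 23.6% higher and 22.7% lower, of all genes, and they are subject to the same limit on symbols. In the direct comparison of the lines 6 of the 21 genes were higher and 9 lower in VAMP7KO, beside 21.3% and 23.6% of all genes.

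Lmod1 encodes leiomodin 1, which nucleates actin filaments in smooth muscle. It had 2, 0, 0 and 0 counts in WT. Levels were 0.858, 0.927, 0.245 and 0.159 CPM in VAMP7KO and 21.1, 14.8, 5.38 and 6.73 CPM in ATG5KO. The lowest VAMP7KO library held 4 counts, and every ATG5KO library lay above every VAMP7KO library. Against 3 counts per WT library, the mean was at least 5.27-fold higher in VAMP7KO and at least 116-fold higher in ATG5KO. VAMP7KO was lower than ATG5KO by a log2 fold change of -4.45 (SE 0.264, edgeR adjusted p = 1.63e-06), -4.26 in replicates 1 and 2 and -4.79 in replicates 3 and 4. Lmod1 averaged 0.547 CPM in VAMP7KO and reached the required mean of 1 CPM only through ATG5KO. The choice of the gene thus favoured this order, and the p-value is not independent evidence of it.

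Asb5 encodes an ankyrin repeat and SOCS box protein of skeletal muscle, of a family that recruits substrates to ubiquitin ligases. It was read at 0.0359, 0.289, 0.190 and 0.208 CPM in WT, at 4.49, 3.93, 4.70 and 4.26 CPM in VAMP7KO and at 4.65, 4.61, 4.36 and 3.60 CPM in ATG5KO. All 8 knockout libraries lay within one narrow range, 24.0 and 23.8 times the WT mean in VAMP7KO and ATG5KO. The difference between the lines did not pass the test, at 0.07 on the log2 scale (standard error 0.239, edgeR adjusted p = 0.826), nor did it in replicates 1 and 2 (-0.07, adjusted p = 0.860) or 3 and 4 alone (0.23, adjusted p = 0.333). Asb5 was also the 1 gene of the set with no call between the replicate sets in any genotype. The TATA letters printed above belong to this gene.

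Other identified genes of muscle were counted in the same way. Of 21 other genes of the sarcomere, Z-disc and thin filament, 14 were higher and 1 lower in VAMP7KO than in WT, and 17 were higher and 2 lower in ATG5KO. Of 16 other genes of muscle calcium handling, energy and protein turnover, 12 were higher and 1 lower in VAMP7KO, and 13 were higher and 2 lower in ATG5KO. Over all genes tested, 10.5% were higher and 12.3% lower in VAMP7KO, and 23.6% were higher and 22.7% lower in ATG5KO. The same limit on symbols applies to these counts, so they are not independent evidence of a direction for muscle genes. The related Asb15 averaged 1.03 CPM in WT, 3.57 CPM in VAMP7KO and 8.43 CPM in ATG5KO, and Asb4 averaged 10.1, 15.4 and 0.13 CPM. Asb15 was higher than WT in both lines, with log2 fold changes of 2.0 (edgeR adjusted p = 0.00241) and 2.96 (adjusted p = 8.10e-05), whereas Asb4 was called higher in VAMP7KO (0.54, adjusted p = 0.0449) and lower in ATG5KO (-6.25, adjusted p = 2.63e-07).

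Akr1c15 encodes an aldo-keto reductase, an enzyme that reduces carbonyl groups of steroids, lipids and other compounds with NADPH. It was read at 2.47, 2.85, 2.41 and 0.868 CPM in WT, at 45.5, 49.2, 7.15 and 8.76 CPM in VAMP7KO and at 23.8, 17.3, 6.15 and 6.12 CPM in ATG5KO. In both lines replicates 1 and 2 lay far above replicates 3 and 4, and the lines overlapped. Means were 12.8 and 6.2 times WT. The difference between the lines was 0.93 on the log2 scale and did not pass (standard error 0.347, edgeR adjusted p = 0.0514), while 5 of 8 other settings called it higher in VAMP7KO. It was also called without WT replicate 1, WT replicate 3 or VAMP7KO replicate 3 (adjusted p of 0.0384, 0.0068 and 0.0112). Within replicates 1 and 2 it was 1.27 (adjusted p = 5.57e-06), and within replicates 3 and 4 it was 0.43 (adjusted p = 0.0578). The closely related Akr1c14 averaged 1.26 CPM in WT, 25.8 CPM in VAMP7KO and 15.3 CPM in ATG5KO. Reads shared by such related genes could be assigned to either or dropped, so the level of each is uncertain.

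LOC103691744 was read at 0.215, 0.181, 0.159 and 0.625 CPM in WT, at 6.14, 6.22, 2.03 and 2.35 CPM in VAMP7KO and at 5.31, 3.91, 12.2 and 12.8 CPM in ATG5KO. The order of the lines depended on the replicate set, with VAMP7KO above ATG5KO in replicates 1 and 2 and far below it in replicates 3 and 4. Over all replicates the difference did not pass (log2 fold change -0.90, standard error 0.550, edgeR adjusted p = 0.208), and it was 0.50 (adjusted p = 0.0816) and -2.45 (adjusted p = 9.15e-12) within the sets.

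ENSRNOG00000062503 was read at 56.6, 54.2, 65.4 and 64.5 CPM in WT, at 157, 149, 135 and 134 CPM in VAMP7KO and at 218, 201, 167 and 175 CPM in ATG5KO. It had the smallest folds of the set, 2.39 and 3.17 times WT, with no overlap between genotypes. VAMP7KO was lower than ATG5KO by a log2 fold change of -0.35 (SE 0.117, edgeR adjusted p = 0.0333), a call lost without VAMP7KO replicate 1, 3 or 4 or ATG5KO replicate 1 or 2 (adjusted p of up to 0.119). The value was -0.39 and -0.28 within the sets, called in each. ENSRNOG00000064430 was read at 2.76, 2.75, 3.43 and 3.33 CPM in WT, at 39.9, 49.4, 18.0 and 17.2 CPM in VAMP7KO and at 19.8, 15.9, 12.9 and 15.3 CPM in ATG5KO. It was higher in VAMP7KO, by 0.94 on the log2 scale (standard error 0.283, edgeR adjusted p = 0.0216), a call lost without VAMP7KO replicate 1 or 2 or ATG5KO replicate 2 or 3 (adjusted p of up to 0.0920). Within the sets it was 1.39 and 0.39, called in each.

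Between the knockout lines, 2 of the 14 genes were higher in VAMP7KO, 8 were lower and 4 had no call. Over all 13141 genes tested, 21.3% were higher and 23.6% lower. Their median log2 fold change was -0.91, beside -0.01 over all genes. Among the lower genes were Lmod1, Ptprq, Fkbp10, Sort1, Nrp1, Serpinf1 and ENSRNOG00000062503. All 14 passed the filter on low counts, which the knockout libraries alone could satisfy. In 7 genes all ATG5KO libraries lay above all VAMP7KO libraries, an order found in 17.3% of genes tested. Lmod1 and Ptprq, among these 7 and among the lower genes, averaged 0.547 and 0.357 CPM in VAMP7KO. They reached the required mean of 1 CPM only through ATG5KO, so the choice of genes favoured this order for them. The counts by direction are therefore not independent of the choice. The opposite order was found in 0 of the 14 and in 11.1% of genes tested. Within replicates 1 and 2 alone, 3 genes were higher and 8 lower in VAMP7KO (19.8% and 21.8% of all genes), and within replicates 3 and 4 alone, 1 was higher and 10 lower (30.9% and 32% of all genes). Over the 14 genes, log2 mean CPM in the lines had a Pearson correlation of 0.873, a description in which gene length and the joint choice of the genes are shared by both axes.

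**Figure D3:**
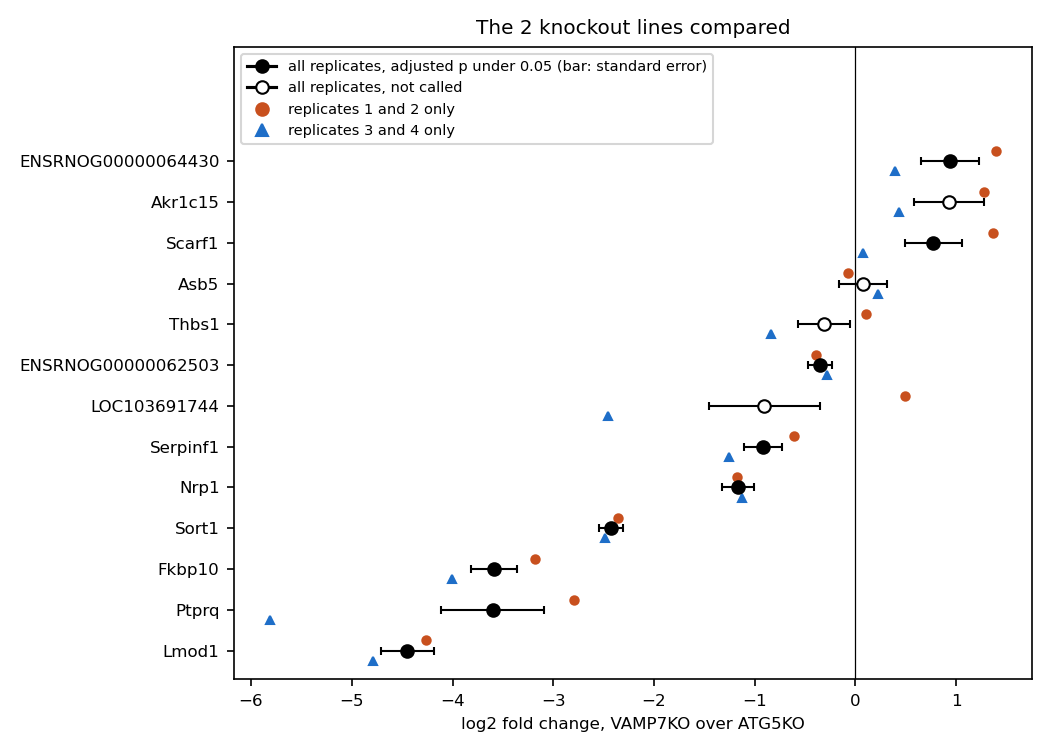
Log2 fold change of VAMP7KO over ATG5KO for 13 genes of the set, from edgeR with the replicate block (black, bars are standard errors, open symbols not called) and from fits within replicates 1 and 2 (orange circles) and within replicates 3 and 4 (blue triangles). Among the black symbols Lmod1 lies lowest at -4.45, ENSRNOG00000064430 highest at 0.94, and LOC103691744 changes side between the sets, from 0.50 to -2.45. Lmod1 and Ptprq reached the required mean of 1 CPM only through ATG5KO, so the choice of genes favoured their negative values.

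The replicate sets differed for most of the genes in the knockout lines. Within VAMP7KO, 12 of the 14 genes were lower in replicates 3 and 4 than in replicates 1 and 2 and 0 were higher, by edgeR's quasi-likelihood test on the 6 means of genotype and set. Over all genes, 28.3% were lower and 27.8% higher. Akr1c15 fell by 2.56 on the log2 scale (SE 0.199, adjusted p = 7.43e-09). Ptprq was called lower (adjusted p = 0.000133), its 37 counts in the earlier-numbered pair against 2 in the later-numbered pair giving a ratio of CPM of 18.7 with an exact 95% counting interval of 4.83 to 160. Lmod1 stood at -2.07 (SE 0.506, adjusted p = 0.00227) and LOC103691744 at -1.48 (SE 0.243, adjusted p = 5.46e-05). ENSRNOG00000062503 lost its call without VAMP7KO replicate 1, 3 or 4 (adjusted p of up to 0.115). The genes without a call in VAMP7KO were Thbs1 (-0.01, standard error 0.0920, adjusted p = 0.919) and Asb5 (0.10, standard error 0.228, adjusted p = 0.719). For the same 12 genes both libraries of replicates 3 and 4 lay below both of replicates 1 and 2, an order held by 40.1% of genes tested, while 36.7% held the opposite order. The choice of the genes required all 8 knockout libraries to be high, which limits how far a set could fall.

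Within ATG5KO, 8 genes were lower in replicates 3 and 4, 2 were higher and 4 had no call, against 27.6% lower and 24.4% higher over all genes. Replicates 3 and 4 both lay below replicates 1 and 2 in 11 genes and above them in 2, against 40.2% and 35.2% of genes tested. The higher genes were LOC103691744, at 1.46 on the log2 scale (standard error 0.214, edgeR adjusted p = 2.11e-05), and Thbs1, with 0.91 (SE 0.0927, adjusted p = 2.95e-07). The largest decreases were those of Akr1c15 (-1.73, standard error 0.213, adjusted p = 2.74e-06), Lmod1 (-1.56, standard error 0.206, adjusted p = 8.19e-06) and Ptprq (-1.03, standard error 0.264, adjusted p = 0.00395). The call of ENSRNOG00000064430 (-0.34, adjusted p = 0.0443) was lost without any 1 WT library, VAMP7KO replicate 3 or 4, or ATG5KO replicate 1 or 3 (adjusted p of up to 0.370). Serpinf1, without a call here, was called without VAMP7KO replicate 2 (adjusted p = 0.0499). The same contrast in WT was added after the values had been seen. There Thbs1 (1.53), ENSRNOG00000062503 (0.35) and Serpinf1 (0.28) were higher in replicates 3 and 4 and Fkbp10 (-2.30) and Sort1 (-0.78) lower, with edgeR adjusted p of at most 0.00852, against 30.5% higher and 31.4% lower over all genes. The WT call of Serpinf1 was lost without WT replicate 1 or 3 (adjusted p of up to 0.0895), and that of Sort1 without WT replicate 2 or 3 (up to 0.164). Lmod1 and Ptprq were at or under 3 counts in every WT library and bear no such comparison.

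**Figure D4:**
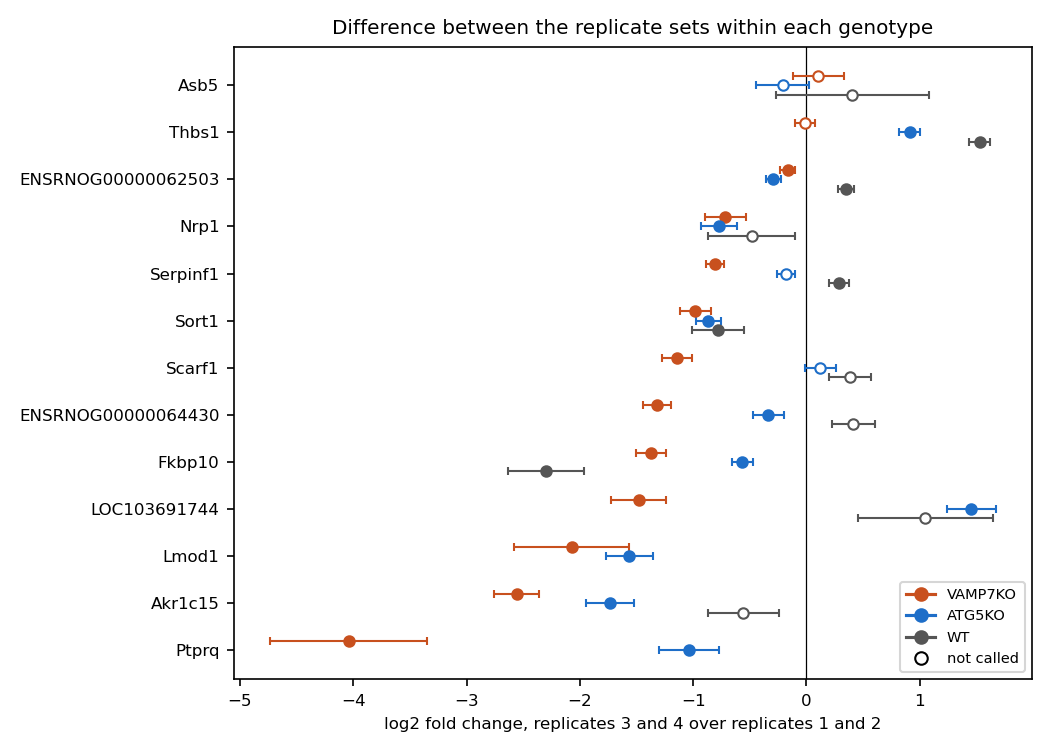
Log2 fold change of replicates 3 and 4 over replicates 1 and 2 within VAMP7KO (orange), ATG5KO (blue) and WT (grey), for 13 genes of the set, with standard errors; open symbols were not called, and WT is not drawn for the 2 genes at or under 3 counts there. Thbs1 stands at -0.01 in VAMP7KO, 0.91 in ATG5KO and 1.53 in WT, and Sort1 falls in all 3 genotypes.

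The difference between the sets was itself unequal between the knockout lines for 7 of the 14 genes, all with the more negative value in VAMP7KO, where 8.77% of all genes had a lower and 8.6% a higher value by the test of the interaction. Leaving out VAMP7KO replicate 3 or 4 or ATG5KO replicate 3 or 4 took the 1130 genes with a higher value to between 617 and 686. LOC103691744 differed by -2.94 (standard error 0.324, edgeR adjusted p = 8.19e-06). Scarf1 differed by -1.27 (SE 0.191, adjusted p = 0.000188) and Thbs1 by -0.93 (SE 0.13, adjusted p = 9.93e-05). Ptprq had a fitted value of -3.01 (SE 0.801, adjusted p = 0.0171), whose size depends on the prior count for the same reason as above, and it lost its call without VAMP7KO replicate 1, 3 or 4 (adjusted p of up to 0.0948). Akr1c15, at -0.82 (adjusted p = 0.0625), was called without WT replicate 3 or 4, VAMP7KO replicate 1 or ATG5KO replicate 1 (adjusted p from 0.0142). Sort1 (-0.12, adjusted p = 0.719) and Nrp1 (0.06, adjusted p = 0.917) were among the genes that did not pass. Applied within each replicate set, the limits of the set held for all 14 genes. The choice over all libraries fixed that outcome in advance, so it is no check of the set. With the limits applied only within a replicate set, 124 genes passed in replicates 1 and 2, 221 in replicates 3 and 4 and 58 in both.

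Markers of several cell types were read in each genotype. A marker was identified only where the study had listed its gene as changed in these libraries. Markers not identified were not read, whatever their level, so each sum covers only a part of its list. Fibroblast markers are among the lists. The study describes its NRK cells as fibroblastic, while its discussion also writes of RTN3A secretion by epithelial cells. Of 9 skeletal muscle precursor markers 3 were identified, with a summed level of 1.71 to 4.70 CPM in WT, 0.750 to 1.43 CPM in VAMP7KO and 77.8 to 95.9 CPM in ATG5KO. Among these Myod1 was at 0 in every VAMP7KO library. Of 9 smooth muscle markers 5 were identified, Lmod1 among them, with summed levels of 10.4 to 15.0, 46.6 to 122 and 76.6 to 106 CPM in WT, VAMP7KO and ATG5KO. They did not move as 1 group. Acta2, smooth muscle actin, averaged 9.36, 72.0 and 8.86 CPM, and Actg2 averaged 0.590, 6.59 and 0.470 CPM. Des, which encodes desmin and is in both muscle lists, averaged 2.87, 1.08 and 67.7 CPM and gave most of either sum in ATG5KO. Of 14 fibroblast markers 7 were identified, with summed levels of 565 to 1589, 1087 to 3231 and 2265 to 4112 CPM. The range of VAMP7KO overlapped those of WT and of ATG5KO. The members differed, with Thy1 at means of 0.349, 0.110 and 145 CPM and Postn at 0 in ATG5KO. Of 8 leukocyte markers 4 were identified, with summed levels of 78.6 to 168, 47.5 to 58.0 and 45.3 to 49.5 CPM. Cd14 gave most of these sums, with means of 110.5, 50.55 and 44.98 CPM. Ptprc averaged 7.98, 0 and 0.0266 CPM, whereas Csf1r averaged 0.780, 0.0831 and 2.74 CPM and Cd3e 0.318, 0.725 and 0.219 CPM, so this list did not move as 1 group either. Of 6 endothelial markers only Cdh5 was identified, at 0.645 CPM or less. The part of these markers in the levels of the 14 genes was not tested.

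Summed over the 14 genes, the level ran from 394 to 858 CPM in WT, from 2342 to 2790 CPM in VAMP7KO and from 2775 to 4722 CPM in ATG5KO. Thbs1 gave most of the counts in this sum. Without it the sums were 131 to 151 CPM in WT, 384 to 696 CPM in VAMP7KO and 824 to 1068 CPM in ATG5KO.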

How the data were processed

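RNA from NRK cells was sequenced in 12 libraries, 4 per genotype. The authors trimmed 50-base reads with cutadapt 4.2, removed ribosomal reads with bowtie 2.2.8, aligned with STAR 2.7.10b to mRatBN7.2 and deposited raw counts per gene from htseq-count 0.13.5 with Ensembl release 110. Columns were mapped to samples by title; a separator missing from the header was restored by position. Symbols came from the study's lists of changed genes (1976 identifiers).

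CPM were computed from column totals. Tests used edgeR 4.0.16 (quasi-likelihood, TMM, filterByExpr, R 4.3.3) on all libraries, with Benjamini-Hochberg adjustment and calls at an adjusted p under 0.05. The comparison of the knockout lines had the replicate number as a block. Deviations of equally numbered libraries correlated at 0.65 to 0.781, but libraries of the same set with another number did so at 0.607 to 0.78, so equal numbers did not stand out within a set. Alternatives were DESeq2 1.42.0, its size factors, no filter, no block, other samples and each library left out. The test was also run on simulated counts that held no replicate-set difference shared by all genotypes. That run is no check of the test under the set differences seen here. Members, role lists, marker lists and motifs were chosen with earlier results of these data known. Genes named were the members by level, fold, line difference, set effect and interaction, those next to the limit, and relatives from the role lists. The members without a symbol, and the relatives named, were picked after their values were seen. No column lacked a sample, and 0 rows named no gene. Of the 14 members, 1 is counted but not reported here.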

Additional observations from a re-analysis of the deposited data

Results flagged for a closer look

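In 38 groups of 4 libraries, each 1 member in 1 genotype, a library stood apart from the other 3 in 2 groups. The limit used marks about 1 group in 20 for normally distributed values. Groups near 0 counts or split by replicate set do not meet that condition, so the rate does not apply to them. Both were WT groups of low level. LOC103691744 was at 0.625 CPM in WT replicate 4, above the other WT libraries. Lmod1 was at 0.0717 CPM in WT replicate 1 and at 0 in the others.

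By the interaction test of edgeR, the difference of replicates 3 and 4 from replicates 1 and 2 was lower in VAMP7KO than in ATG5KO for 8.77% of all genes. For 8.6% of all genes it was higher. The difference was unequal in VAMP7KO and ATG5KO for 7 of the 14 members by this test. On the log2 scale, VAMP7KO minus ATG5KO, it was -0.93 for Thbs1 (adjusted p = 9.93e-05), -0.63 for Serpinf1 (adjusted p = 0.00115), -0.80 for Fkbp10 (adjusted p = 0.00248) and -0.99 for ENSRNOG00000064430 (adjusted p = 0.00118). It was -1.27 for Scarf1 (adjusted p = 0.000188), -2.94 for LOC103691744 (adjusted p = 8.19e-06) and -3.01 for Ptprq (adjusted p = 0.0171), a fitted size that rests on 1 count in each of VAMP7KO replicates 3 and 4. The call of Ptprq was lost without VAMP7KO replicate 1, 3 or 4 (edgeR adjusted p of up to 0.0948).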

How the results depend on the processing

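The count of genes lower in VAMP7KO than in ATG5KO stayed within 1.5 times of 8 under every alternative. The 2 genes higher in VAMP7KO were 1 without the replicate block and 1 in replicates 3 and 4 alone, and 0 to 3 with a library left out. They were 0 without VAMP7KO replicate 1, VAMP7KO replicate 2 or ATG5KO replicate 2, and 1 without WT replicate 2 or ATG5KO replicate 1, 3 or 4. Without the replicate block 6 were lower, and the calls of ENSRNOG00000062503 and Scarf1 were among those lost; the block changed 3 calls. Over all genes, leaving out the block took the higher and lower calls from 2797 and 3106 to 1346 and 1651 between the lines, from 1385 and 1619 to 386 and 638 for VAMP7KO over WT, and from 3096 and 2985 to 1624 and 1478 for ATG5KO over WT. For VAMP7KO over WT they were 2658 and 2625 in replicates 3 and 4 alone. Values with no call changed sign in replicates 1 and 2 alone for Thbs1 (0.10), LOC103691744 (0.50) and Asb5 (-0.072). With a library left out Asb5 ran from -0.0099 (without ATG5KO replicate 4) to 0.188. The number of genes chosen was 39 at a fold limit of 1.5, 6 at 3, and 58 with the limits applied within each replicate set. It was 13 to 20 with a library left out, where 13 was the number without ATG5KO replicate 1. The genes lower in replicates 3 and 4 of WT were 1 without WT replicate 2. The cause of these changes was not tested. WT levels near or under 3 counts limit the folds of Lmod1, Ptprq and Asb5.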

Other observations

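Further lists of genes, without the members some of them hold, were counted under the same limit on symbols. Over all genes tested, 10.5% were higher and 12.3% lower in VAMP7KO than in WT, and 23.6% were higher and 22.7% lower in ATG5KO. Between the lines, 21.3% were higher and 23.6% lower in VAMP7KO. Symbols were known only for genes listed as changed, so the counts are not independent evidence of a direction. Of 25 transcription factors of muscle, tendon and mesenchyme, 20 were higher and 3 lower in VAMP7KO than in WT, and 15 were higher and 5 lower in ATG5KO. Of 7 target genes of TEAD and YAP other than Thbs1, 6 were higher in VAMP7KO and 5 in ATG5KO, with 0 lower in either. Of these Ccn2, a matricellular protein, averaged 165 CPM in WT, 662 CPM in VAMP7KO and 168 CPM in ATG5KO. Ankrd1, a nuclear and sarcomeric ankyrin repeat protein, averaged 5.26, 34.7 and 13.2 CPM. Of 15 innate antiviral genes, 4 were higher and 3 lower in VAMP7KO, whereas 12 were higher and 2 lower in ATG5KO, and in the direct comparison 0 were higher and 12 lower in VAMP7KO.

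Of 26 other redox, lipid and small-molecule enzymes, 22 were higher and 2 lower in VAMP7KO than in WT, and 18 were higher and 2 lower in ATG5KO. Of 14 other genes of complement, coagulation and protease control, 9 were higher and 3 lower in VAMP7KO, and 11 were higher and 2 lower in ATG5KO. Of 22 actin and microtubule adaptors, 17 were higher and 0 lower in VAMP7KO, and 17 were higher and 1 lower in ATG5KO. Of 18 other adhesion and neural surface proteins, 16 were higher and 1 lower in VAMP7KO, and 13 were higher and 5 lower in ATG5KO. Of 18 G protein-coupled and natriuretic peptide receptors and their signalling genes, 13 were higher and 1 lower in VAMP7KO, and 11 were higher and 6 lower in ATG5KO. All are calls of edgeR's quasi-likelihood test with adjustment over all genes. They stand beside the shares of all genes given above and are subject to the same limit on symbols.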
